A study of Mus musculus with 16 samples.

Results

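The PI3K-AKT-mTOR pathway was followed through 9 of its core genes: *Pik3ca*, *Akt1*, *Akt2*, *Tsc1*, *Tsc2*, *Rheb*, *Mtor*, *Rptor* and *Rps6kb1*. They were chosen by symbol and are 9 of the 20622 genes in the total RNA tables. All 9 passed the filter on low counts in both kinds of library. None of the 9 passed the test for a difference between eIF4A2-disrupted and control lung tumour cells in ribosome footprints, in mRNA or in the ratio of both, where 10.3%, 6.13% and 2.87% of all genes tested did.

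KM cells were cultured from lung tumours of 1 male mouse whose engineered alleles, shared by both lines, included additional MYC (*Rosa26* LSL-MYC/LSL-MYC). KM4A2cr cells had received a lentiviral CRISPR vector whose guide cuts the coding sequence of *Eif4a2*, an RNA helicase of translation initiation, and are a pool of 4 clones that the methods describe as eIF4A2-negative. KMNTC cells had received a non-targeting guide, and neither line was treated with a drug. Each line gave 4 replicates, done on different days, and each lysate gave a library of ribosome-protected fragments (RPFs, which report where ribosomes sit on mRNA) and a library of cytoplasmic total RNA, 16 libraries in all. Both lines come from the same tumour culture, so the comparison is between 2 derived cell populations, and a clone's own features and the disruption of *Eif4a2* cannot be told apart.

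PI3K is a lipid kinase that responds to growth factor receptors, and *Pik3ca* encodes its p110 alpha catalytic subunit. The lipid it makes brings AKT kinases to the plasma membrane, where they become active and phosphorylate, among others, the TSC1-TSC2 complex. That complex keeps the small GTPase RHEB inactive. When released, RHEB activates mTOR within mTORC1, whose defining subunit is RAPTOR (*Rptor*), and mTORC1 phosphorylates S6 kinase (*Rps6kb1*) and the 4E-BP proteins, which restrain cap-dependent initiation. Signalling through this pathway is set largely by phosphorylation, which neither kind of library measures.

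Libraries held between 4512403 and 9621848 RPF counts and between 5350919 and 9312622 total RNA counts, and the 9 genes had 31 to 828 RPF counts and 81 to 1752 total RNA counts per library. The epithelial genes *Epcam*, *Cdh1*, *Krt8* and *Krt18* were abundant, whereas the alveolar type 2 genes *Sftpc* and *Nkx2-1* had 0 RPF counts, and *Abca3* (45.4 to 170 RPF CPM) and *Etv5* (19.7 to 39.8 RPF CPM), which alveolar type 2 cells also express, were present. Of 14 alveolar type 2 and epithelial markers, 5 were at 0 in all 8 RPF libraries (*Sftpc*, *Nkx2-1*, *Sftpb*, *Sftpa1* and *Lamp3*). *Sftpd*, *Napsa* and *Slc34a2* were at no more than 1.64, 1.47 and 0.483 RPF CPM. Of the alveolar type 2 genes listed, only *Abca3* and *Etv5* thus passed the filter on low counts in RPFs. The summed level of 7 fibroblast markers was 2.63 to 21.4 CPM (counts scaled to library size, with TMM factors) in KMNTC RPFs and 4.59 to 14.3 CPM in KM4A2cr RPFs. Of these, *Pdgfra* was at 2.63 to 21.4 and 4.23 to 14.3 CPM, and *Dcn* and *Lum* were at 0. For 4 endothelial markers the summed level was 1.45 to 17.2 and 1.45 to 12.4 CPM, and for 6 immune cell markers 120 to 821 and 155 to 715 CPM, most of the latter from *Cd68*. *Cd14* was at 41.1 to 90.5 CPM in KMNTC RPFs and 19.1 to 79.1 CPM in KM4A2cr RPFs, and *Ptprc* at no more than 2.33 CPM. *Eif4a2* itself had 97.7, 122, 99.8 and 389 RPF CPM in KMNTC replicates 1 to 4 and 51.0, 88.4, 74.8 and 346 in KM4A2cr, lower within each of the 4 pairs (log2 fold change -0.49, SE 0.15, adjusted p = 0.0941 by edgeR). Its total RNA ran from 220.5 to 524 CPM in KMNTC and from 183 to 467 CPM in KM4A2cr (log2 fold change -0.18, adjusted p = 0.504). That RPF call was lost when replicate 1, 2 or 3 was left out. Footprints on its mRNA were thus lower but not lost, and whether they gave a functional protein was not measured here. *Eif4a2* was highest in replicate 4 in both lines.

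The libraries of replicate 4 were the shallowest of both kinds in each line, in KM4A2cr total RNA by little (5350919 beside 5647164 counts in replicate 3). Their scaled levels differed too. Log2 RPF CPM in replicate 4 minus the mean of replicates 1 to 3 had 5th and 95th percentiles over all genes of -1.25 and 1.36 in KMNTC. In KM4A2cr they were -1.76 and 1.33. Which of these bears on the number of calls was not tested. Leaving replicate 4 out raised the share of genes called from 10.3% to 33.4% in RPFs, from 6.13% to 29.8% in total RNA and from 2.87% to 7.94% in translational efficiency. Results for the 9 genes are therefore given with and without replicate 4 where it matters.

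Fold changes below are KM4A2cr over KMNTC on the log2 scale, fitted by quasi-likelihood in edgeR with the replicate number as a block, and adjusted p-values are Benjamini-Hochberg values over all genes tested with a threshold of 0.1. Translational efficiency is the change in RPFs beyond that in total RNA. Among all genes tested, 10.3% passed in RPFs, 6.13% in total RNA and 2.87% in translational efficiency. Of the 9 pathway genes 0 passed in any of these, whereas at an unadjusted p under 0.05 there were 1 of 9 in RPFs (*Akt1*), 1 of 9 in total RNA (*Rptor*) and 3 of 9 in translational efficiency (*Pik3ca*, *Rptor* and *Rheb*), against 23.4%, 18.3% and 14.1% of all genes. DESeq2 called 0 of 9 in each as well, with 0, 1 and 2 of 9 under an unadjusted p of 0.05. Of all genes tested, DESeq2 called 958 of 10291, 589 of 10880 and 136 of 9989. Under an unadjusted p of 0.05 by DESeq2 there were 1824, 1488 and 783 of them. By edgeR, the median log2 fold changes of the 9 genes were 0.0069 in RPFs, -0.028 in total RNA and -0.053 in translational efficiency. Over all genes they were -0.0090, 0.0099 and -0.016. The 95% intervals of the 9 RPF changes, expressed as folds, all lay between 0.665 and 1.70. Those of total RNA lay between 0.715 and 1.72, and those of translational efficiency between 0.605 and 1.57. No interval of this fit thus reached a doubling or its inverse. The fit shares information on variance across genes, and intervals from a gene's own pairs alone were not computed.

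**Figure D1:**
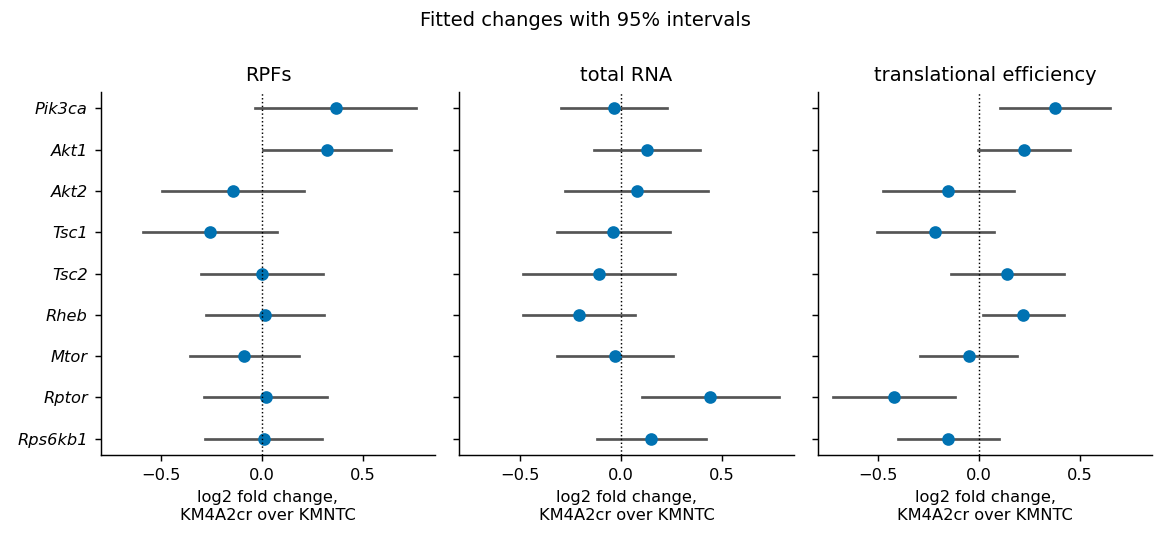
Fitted log2 fold changes (x axis, KM4A2cr over KMNTC) of the 9 genes in RPFs, total RNA and translational efficiency. Points are estimates and lines 95% intervals from edgeR with 4 replicates per line, and the dotted line marks 0. The RPF estimates run from -0.26 for *Tsc1* to 0.37 for *Pik3ca*, and *Rptor* stands to the right in total RNA (0.44) and to the left in translational efficiency (-0.42).

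In RPFs the spread of a gene over the 4 replicates of 1 line, from lowest to highest, was 0.32 to 1.06 on the log2 scale in KMNTC and 0.21 to 1.18 in KM4A2cr. In total RNA it was 0.17 to 0.75 and 0.29 to 1.04. For none of the 9 genes did the KMNTC and KM4A2cr libraries separate without overlap, beside 2.13% of all genes in RPFs and 1.97% in total RNA. A direction shared by all 4 pairs was seen for 1 of 9 genes in RPFs (*Pik3ca*, higher) and 2 of 9 in total RNA (*Rptor*, higher, and *Rheb*, lower), against 30.1% and 25.4% of all genes. For translational efficiency the share of all genes with such a direction was not computed. The shared directions given below for it therefore have no background to be read against.

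**Figure D2:**
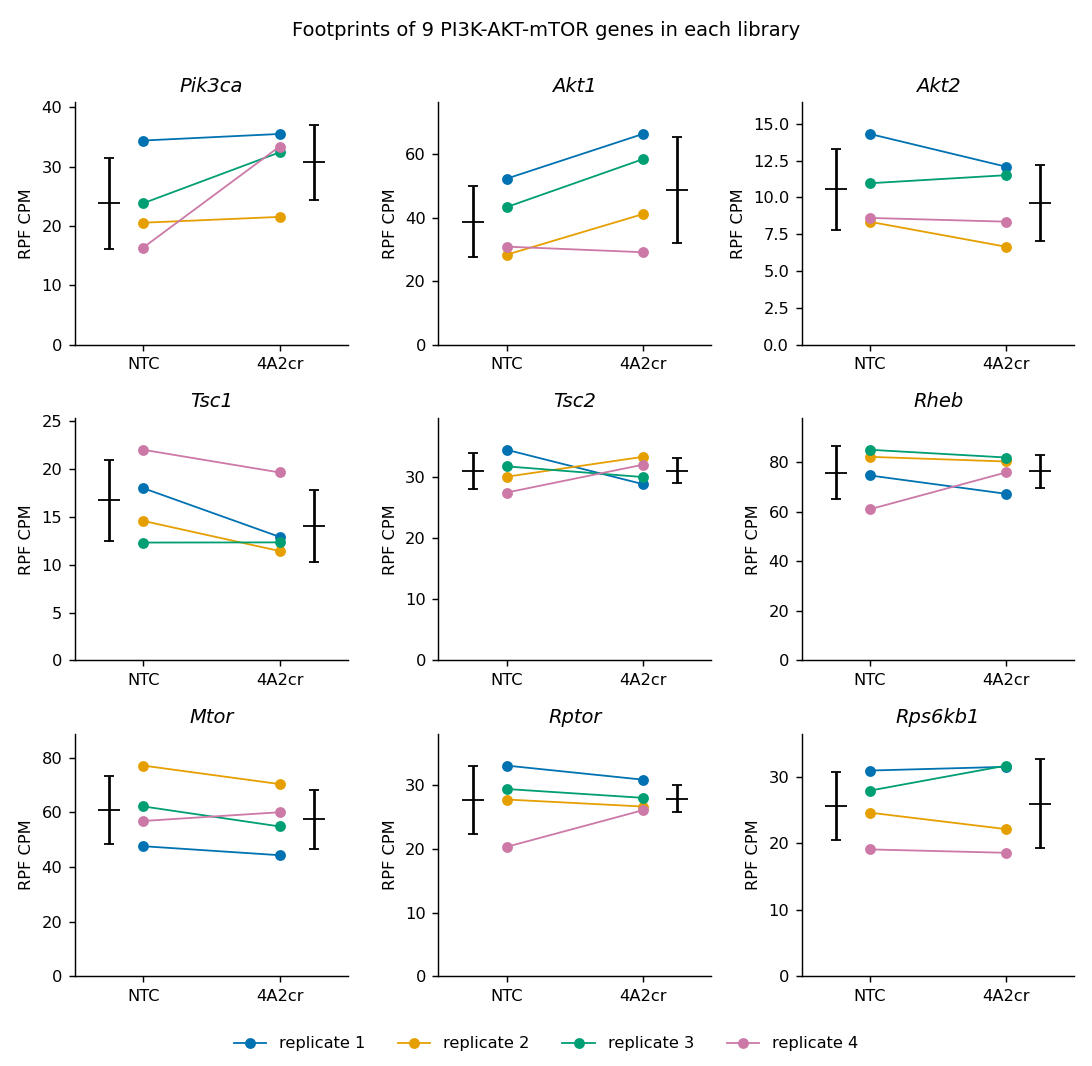
RPF CPM (y axis, from 0) of the 9 genes in KMNTC and KM4A2cr cells. Each point is 1 library, lines join the libraries of 1 replicate, and black bars beside them give mean and SD of 4 libraries. The cell lines overlap for each gene, *Pik3ca* is higher in KM4A2cr mainly in replicate 4 (33.4 beside 16.4), and *Akt1* is higher in the other replicates.

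At the top of the pathway, *Pik3ca* (ENSMUSG00000027665.14) had 34.4, 20.5, 23.8 and 16.4 RPF CPM in KMNTC replicates 1 to 4 and 35.5, 21.5, 32.4 and 33.4 in KM4A2cr. KM4A2cr was the higher in each pair, but by little in replicates 1 and 2, and the paired log2 differences were 0.045, 0.066, 0.44 and 1.02. Its RPF log2 fold change was 0.37 (SE 0.18, 95% interval -0.033 to 0.76, adjusted p = 0.249). Its mRNA was 128, 133, 127 and 119 total RNA CPM in KMNTC and 114, 139.7, 121 and 122 in KM4A2cr, higher in 2 pairs and lower in the other two. Its log2 fold change in total RNA was -0.032 (SE 0.12, 95% interval -0.29 to 0.23, adjusted p = 0.926). Translational efficiency changed by 0.38 (SE 0.13, 95% interval 0.10 to 0.65, adjusted p = 0.160), with paired values of 0.21, -0.0036, 0.51 and 0.98. The values rest on replicate 4 to a large degree: without it, the RPF change of *Pik3ca* was 0.18 (adjusted p = 0.346) and that of translational efficiency 0.26 (adjusted p = 0.249). With no filter on low counts, *Pik3ca* passed in translational efficiency (0.38, adjusted p = 0.0762 by edgeR), where 470 of 13775 genes did.

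Of the AKT kinases, *Akt1* (ENSMUSG00000001729.15), the isoform most tied to growth and survival signalling, had 52.2, 28.3, 43.3 and 30.8 RPF CPM in the 4 KMNTC libraries and 66.3, 41.1, 58.4 and 29.1 in KM4A2cr. Footprints were higher in KM4A2cr in replicates 1, 2 and 3 and slightly lower in replicate 4, with paired log2 differences of 0.34, 0.53, 0.43 and -0.084. The *Akt1* RPF log2 fold change was 0.32 (SE 0.14, 95% interval 0.0053 to 0.64, adjusted p = 0.207). Its total RNA was 169.6, 129.6, 143 and 109.8 CPM in KMNTC and 168, 147, 164 and 122 in KM4A2cr, a log2 fold change of 0.13 (SE 0.12, 95% interval -0.13 to 0.39, adjusted p = 0.615). The change in translational efficiency was 0.22 (SE 0.11, 95% interval -0.0082 to 0.45, adjusted p = 0.379). Without replicate 4, *Akt1* passed in RPFs (0.43, adjusted p = 0.0128) and in translational efficiency (0.34, adjusted p = 0.0500 by edgeR), where 33.4% and 7.94% of all genes did.

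*Akt2* (ENSMUSG00000004056.16), the isoform best known for insulin-driven glucose uptake, had 14.3, 8.34, 11.0 and 8.60 RPF CPM in KMNTC and 12.1, 6.64, 11.5 and 8.35 in KM4A2cr. The lines overlapped widely, and the log2 fold change was -0.14 (SE 0.16, 95% interval -0.49 to 0.21, adjusted p = 0.620). *Akt2* mRNA was 46.7, 55.3, 60.8 and 49.8 CPM in KMNTC and 40.7, 50.1, 60.4 and 80.0 in KM4A2cr, where the library of replicate 4 was the highest of the 8. That replicate set the sign of the total RNA change, which was 0.079 (SE 0.16, 95% interval -0.27 to 0.43, adjusted p = 0.845) with it and -0.12 without it. *Akt2* had a change in translational efficiency of -0.15 (SE 0.16, 95% interval -0.48 to 0.17, adjusted p = 0.711). AKT1 and AKT2 are alike in sequence, and how far short footprints could be exchanged between their transcripts was not examined.

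The TSC complex, the brake on RHEB, gave *Tsc1* (ENSMUSG00000026812.17), its scaffold, at 18.0, 14.6, 12.3 and 22.0 RPF CPM in KMNTC and 12.9, 11.4, 12.3 and 19.7 in KM4A2cr. KM4A2cr was lower in replicates 1, 2 and 4 and nearly equal in replicate 3. The *Tsc1* RPF log2 fold change was -0.26 (SE 0.15, 95% interval -0.59 to 0.074, adjusted p = 0.327), the lowest of the 9. Its total RNA ran from 36.5 to 45.0 CPM in KMNTC and from 35.0 to 51.9 CPM in KM4A2cr, with a log2 fold change of -0.037 (SE 0.13, 95% interval -0.32 to 0.24, adjusted p = 0.919), and translational efficiency changed by -0.22 (SE 0.14, 95% interval -0.51 to 0.071, adjusted p = 0.517). *Tsc1* lies on chromosome 2 (GRCm38.p6 annotation), the only one of the 9 to do so. The 833 chromosome 2 genes tested in RPFs had a median log2 fold change of -0.21, beside -0.0090 over all genes, and 43.2% of them lay below *Tsc1*. The part of the chromosome in the value of *Tsc1* was not tested.

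*Tsc2* (ENSMUSG00000002496.11), the GTPase-activating partner, was the steadiest in footprints, with 34.5, 30.1, 31.8 and 27.5 RPF CPM in KMNTC and 28.9, 33.3, 30.0 and 32.0 in KM4A2cr. The log2 fold change of *Tsc2* was 0.00063 (SE 0.13, 95% interval -0.30 to 0.30, adjusted p = 0.999). Total RNA was less even, at 32.0, 30.0, 24.2 and 20.5 CPM in KMNTC and 23.2, 27.7, 18.9 and 30.0 in KM4A2cr. It was lower in KM4A2cr in replicates 1 to 3 and higher in replicate 4, and the total RNA change was -0.11 (SE 0.17, 95% interval -0.48 to 0.27, adjusted p = 0.790). Without replicate 4, *Tsc2* mRNA passed the test as lower (-0.31, adjusted p = 0.0826 by edgeR). Translational efficiency of *Tsc2* changed by 0.14 (SE 0.14, 95% interval -0.14 to 0.42, adjusted p = 0.697).

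*Rheb* (ENSMUSG00000028945.10), the GTPase that switches mTORC1 on, had 74.7, 82.2, 85.1 and 61.1 RPF CPM in KMNTC and 67.3, 80.3, 81.9 and 75.9 in KM4A2cr. The RPF log2 fold change of *Rheb* was 0.014 (SE 0.13, 95% interval -0.28 to 0.31, adjusted p = 0.961). Its mRNA was lower in KM4A2cr in 4 of 4 pairs, with 133, 158, 158 and 106 total RNA CPM in KMNTC against 97.6, 143, 137 and 104. In total RNA the *Rheb* change was -0.21 (SE 0.12, 95% interval -0.48 to 0.069, adjusted p = 0.426), and it passed without replicate 4 (-0.27, adjusted p = 0.0498 by edgeR). Translational efficiency was higher in 4 of 4 pairs (0.30, 0.11, 0.15 and 0.34), at 0.22 (SE 0.098, 95% interval 0.017 to 0.42, adjusted p = 0.303).

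In mTORC1, *Mtor* (ENSMUSG00000028991.16), the kinase, had 47.6, 77.1, 62.2 and 56.9 RPF CPM in KMNTC and 44.3, 70.4, 54.9 and 60.0 in KM4A2cr. Replicate 2 was the highest in both lines. *Mtor* had an RPF log2 fold change of -0.087 (SE 0.12, 95% interval -0.36 to 0.18, adjusted p = 0.706). Its total RNA was 31.6, 40.8, 31.5 and 31.8 CPM in KMNTC and 35.0, 35.0, 28.0 and 35.3 in KM4A2cr, with 1 library of each line far from the other 3. The total RNA change was -0.028 (SE 0.13, 95% interval -0.32 to 0.26, adjusted p = 0.943) and that of translational efficiency -0.053 (SE 0.12, 95% interval -0.29 to 0.19, adjusted p = 0.883), the closest to 0 of the 9.

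*Rptor* (ENSMUSG00000025583.16), the subunit that recruits mTORC1 substrates, showed the largest mRNA difference of the 9. Total RNA CPM was 15.6, 18.1, 12.8 and 15.5 in KMNTC and 24.2, 18.8, 17.4 and 25.1 in KM4A2cr, higher in 4 of 4 pairs with paired log2 differences of 0.63, 0.058, 0.43 and 0.68. Only in replicate 2 was the pair close. The log2 fold change in total RNA was 0.44 (SE 0.15, 95% interval 0.11 to 0.78, adjusted p = 0.153). *Rptor* footprints were 33.1, 27.8, 29.4 and 20.4 RPF CPM in KMNTC and 30.9, 26.7, 28.1 and 26.1 in KM4A2cr, lower in 3 pairs and higher in replicate 4, with a log2 fold change of 0.017 (SE 0.13, 95% interval -0.29 to 0.32, adjusted p = 0.954). Translational efficiency of *Rptor* was lower in 4 of 4 pairs (-0.73, -0.12, -0.50 and -0.33), at -0.42 (SE 0.15, 95% interval -0.72 to -0.12, adjusted p = 0.158). Without replicate 4, its mRNA passed as higher (0.35, adjusted p = 0.0909), whereas translational efficiency did not (-0.42, adjusted p = 0.113 by edgeR).

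*Rps6kb1* (ENSMUSG00000020516.16), S6 kinase and the main kinase output of mTORC1, had 31.0, 24.6, 27.9 and 19.1 RPF CPM in KMNTC and 31.5, 22.1, 31.7 and 18.6 in KM4A2cr. Both lines had their lowest value in replicate 4. The RPF log2 fold change of *Rps6kb1* was 0.0069 (SE 0.13, 95% interval -0.28 to 0.30, adjusted p = 0.982). Total RNA was 60.3, 54.1, 60.0 and 35.8 CPM in KMNTC and 64.4, 61.8, 73.8 and 35.7 in KM4A2cr, and again replicate 4 was the lowest in both. Its total RNA change was 0.15 (SE 0.12, 95% interval -0.12 to 0.42, adjusted p = 0.564) and its translational efficiency, lower in 4 of 4 pairs, changed by -0.15 (SE 0.12, 95% interval -0.40 to 0.096, adjusted p = 0.616). In these bulk libraries, fewer cells that carry an mRNA and less mRNA in each cell cannot be told apart.

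**Figure D3:**
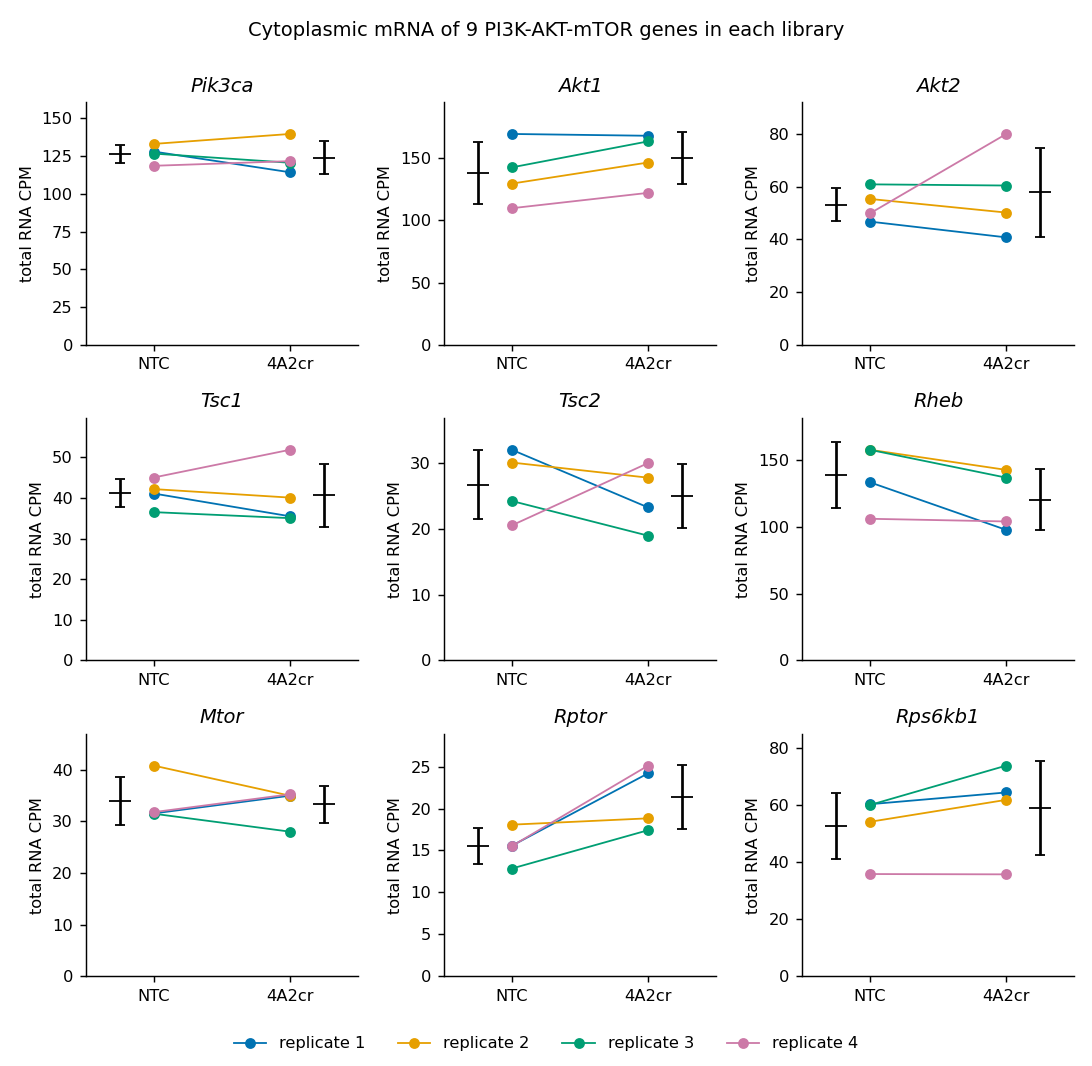
Total RNA CPM (y axis, from 0) of the 9 genes in KMNTC and KM4A2cr cells, drawn as in the plot of RPF CPM by library. *Rptor* is higher and *Rheb* lower in KM4A2cr in each of the 4 replicates, while *Akt2*, *Tsc1* and *Tsc2* are higher only in replicate 4.

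**Figure D4:**
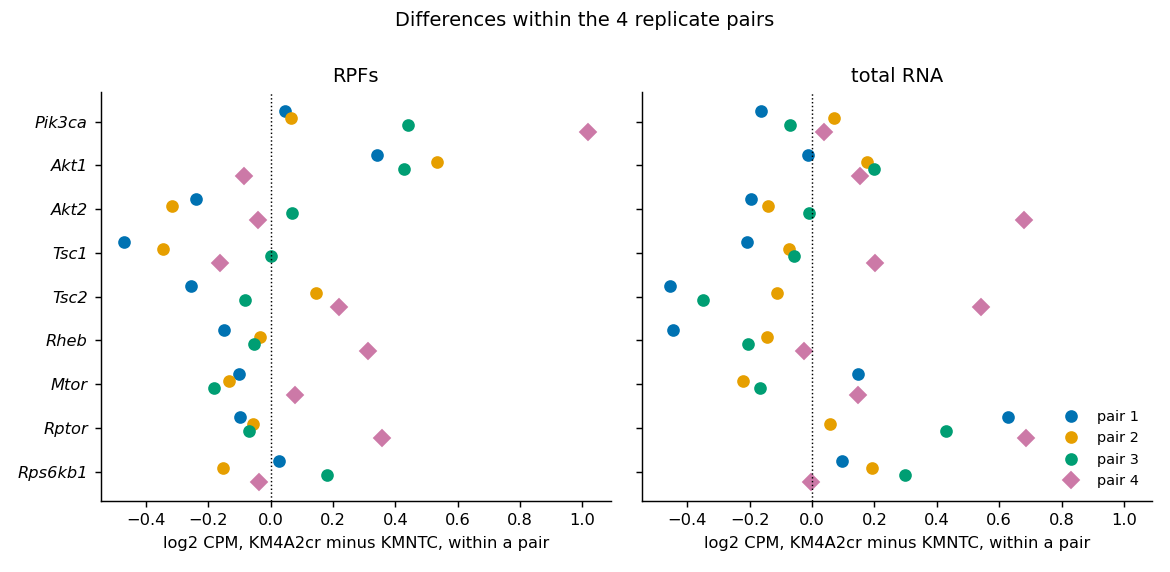
Differences in log2 CPM between KM4A2cr and KMNTC (x axis) within each replicate pair, for RPFs and total RNA. Diamonds mark pair 4, which lies farthest to the right for *Pik3ca*, *Tsc2*, *Rheb*, *Mtor* and *Rptor* in RPFs and for *Akt2*, *Tsc1*, *Tsc2*, *Rheb* and *Rptor* in total RNA, and farthest to the left for *Akt1* in RPFs and *Rps6kb1* in total RNA.

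Levels of different genes can be compared only per length, and this was done for mRNA with the deposited TPM (transcript abundance corrected for length), summed over the isoforms of a gene. In KMNTC, *Rheb* (median 158, range 94.5 to 204 TPM over 4 libraries) and *Akt1* (141, 88.0 to 168 TPM) were the most abundant, and their ranges overlapped. *Akt2* (36.4, 26.9 to 45.3 TPM) and *Pik3ca* (35.5, 27.1 to 44.1 TPM) came next and did not differ beyond their spread. *Rps6kb1* had a median of 21.5 TPM (10.6 to 23.3), close to the median of 18.6 TPM over the tested genes. *Mtor* (10.6, 8.52 to 15.4 TPM), *Tsc1* (9.13, 8.45 to 11.7 TPM) and *Tsc2* (8.94, 5.40 to 11.4 TPM) lay below that median with overlapping ranges, and *Rptor* was the scarcest (3.88, 3.47 to 5.87 TPM). Neighbours in this order were separated only between *Akt1* and *Akt2* and between *Pik3ca* and *Rps6kb1*. In KM4A2cr the order was the same except that *Akt1* (149, 74.6 to 153 TPM) came before *Rheb* (119, 68.9 to 172 TPM), again with overlap, and only *Rheb* and *Akt2* were separated there. The GTPase and the more abundant AKT kinase were thus present at several times the mRNA level of the TSC proteins, mTOR and RAPTOR in both lines.

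RPFs were counted on 1 transcript per gene, while total RNA was estimated for each isoform, so the isoforms behind the 9 genes bear on translational efficiency. *Rheb* and *Rptor* had a single isoform. For *Akt1* the counted transcript, of 1342 bases, held 50.3% to 54.2% of the gene's TPM in KMNTC and 47.5% to 57.0% in KM4A2cr, the rest going to an isoform of 2690 bases. For *Akt2* the counted transcript, of 1392 bases, held 27.8% to 35.3% in KMNTC and 32.2% to 40.0% in KM4A2cr, the largest median share of its 4 isoforms. Both counted AKT transcripts are the shortest of their gene, and whether they hold the whole coding sequence was not tested. The RPF counts and translational efficiency of *Akt1* and *Akt2* may thus rest on a part of it. *Pik3ca* was split between isoforms of 6689 and 6171 bases, the former, which was counted, with 53.6% to 56.1% in KMNTC and 48.8% to 56.1% in KM4A2cr. A short *Mtor* isoform of 1003 bases took 24.5% to 48.7% of its TPM in KMNTC and 33.4% to 63.0% in KM4A2cr from only 67 and 62 counts summed over 4 libraries, so these shares are imprecise. *Rps6kb1* kept 77.3% to 81.9% and 72.2% to 79.8% in its counted isoform of 5531 bases. Shares of the counted isoform overlapped between lines for each of the 7 genes with more than 1 isoform. When total RNA was restricted to the counted isoform, 0 of the 9 genes passed in total RNA and 0 in translational efficiency by edgeR. Of all genes, 500 of 10403 and 256 of 9745 passed. Under an unadjusted p of 0.05 there were 1 and 4 of the 9, and 1773 and 1294 of all genes.

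Across the 8 RPF libraries, the 9 genes did not vary as a block. The highest Pearson correlation of log2 CPM between a pair of them was 0.86 for *Akt1* and *Rps6kb1*, and the lowest -0.79 for *Akt2* and *Mtor*. The tested genes whose footprints followed each one most closely were *Wwp1* for *Pik3ca* (r = 0.970), *Letm1* for *Akt1* (r = 0.988) and *Ubn1* for *Akt2* (r = 0.969). For the TSC-RHEB step they were *Ube2v1* for *Tsc1* (r = 0.957), *Zfp64* for *Tsc2* (r = 0.944) and *Pcif1* for *Rheb* (r = 0.960). Around mTORC1 they were *Fto* for *Mtor* (r = 0.986), *Fbxo22* for *Rptor* (r = 0.982) and *Wdfy3* for *Rps6kb1* (r = 0.975). These values describe 8 libraries that share replicate numbers, depth and scaling, and each is the best of all tested genes.

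The rest of the pathway was read from a list of 85 other genes in 8 groups by role. Of these, 75 were tested in RPFs, 76 in total RNA and 74 in translational efficiency. In RPFs 2 were higher and 3 lower in KM4A2cr, or 6.67% of those tested, where 6.60% of all genes were higher and 3.72% lower. In total RNA 1 was higher and 2 lower, or 3.95%, where 4.35% of all genes were higher and 1.78% lower. In translational efficiency 3 were higher and 0 lower, or 4.05%, where 1.87% of all genes were higher and 1.00% lower. Median log2 fold changes of the list were -0.076, 0.011 and -0.042. Each RPF and translational efficiency call in the list was lost when replicate 1, 2 or 3 was left out (0 of the list in each case). In total RNA, *Prr5l* and *Ddit4* passed without replicate 1, *Ddit4* alone without replicate 2 and 0 without replicate 3. In RPFs 18 of 76 passed without replicate 4, where 33.4% of all genes did.

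Of 8 tested PI3K subunits and adaptors, 0 passed by edgeR in RPFs, total RNA or translational efficiency, with 2, 2 and 1 under an unadjusted p of 0.05. The 0 in total RNA depended on the processing: *Irs1*, an adaptor of insulin and IGF1 receptors chosen here after its values were seen, was at -0.67 with an adjusted p of 0.107 by edgeR, and passed as lower by DESeq2 (0.0473), with DESeq2 size factors (0.0959), with no filter on low counts (0.000483) and without replicate 4 (0.0187). With library size only, 2 of the 8 passed as lower in RPFs (*Irs1* and *Irs2*) and 2 in total RNA (*Irs1* and *Pik3r3*). With that scaling 1137 of all 10291 genes passed as lower in RPFs and 868 of 10880 in total RNA. Without replicate 4, 2 of the 8 passed as higher and 1 as lower in each kind. In that setting 33.4% of all genes passed in RPFs and 29.8% in total RNA.

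Among 9 tested mTOR complex partners, *Akt1s1* and *Prr5l* fell in RPFs and none rose. *Akt1s1* encodes PRAS40, an inhibitor of mTORC1 that AKT phosphorylates, and its RPF CPM was 24.5, 20.4, 22.9 and 22.9 in KMNTC and 11.6, 15.3, 17.8 and 17.5 in KM4A2cr, with no overlap between lines. Its log2 fold change was -0.57 (SE 0.16, 95% interval -0.93 to -0.20, adjusted p = 0.0844) in RPFs and -0.46 (SE 0.13, 95% interval -0.75 to -0.17, adjusted p = 0.0916) in total RNA, and that of translational efficiency -0.11 (SE 0.15, 95% interval -0.42 to 0.21, adjusted p = 0.800). *Prr5l*, an mTORC2-associated protein, had 10.0, 9.13, 4.11 and 6.29 RPF CPM in KMNTC and 4.95, 4.18, 2.53 and 0.539 in KM4A2cr, the last from 2 counts. It fell by 1.21 on the log2 scale in RPFs (SE 0.29, adjusted p = 0.0525 by edgeR) and by 1.22 in total RNA (SE 0.24, adjusted p = 0.0247 by edgeR). In total RNA the lines did not overlap, but barely so. The lowest KMNTC library had 3.79 CPM from 28 counts and the highest of KM4A2cr 3.76 CPM from 23 counts. Of all genes, 2.13% did not overlap in RPFs and 1.97% in total RNA. *Prr5l* also lies on chromosome 2, whose tested genes had a median of -0.21 in RPFs and -0.17 in total RNA, and the part of the chromosome in its value was not tested. The log2 fold changes of the 9 partners in RPFs had a median of -0.29 with 0 of 9 above 0, where 48.9% of all genes were. It was the lowest median of the groups by role, and those of the other groups ran from -0.076 to 0.17. The count above 0 stayed at 0 of 9 under the 3 other scalings. It was 3 of 9 without replicate 1, where the median was -0.11, and 1 of 10 without replicate 4.

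On the arms that feed into mTORC1, *Ddit4*, which encodes the stress-induced mTORC1 inhibitor REDD1, had more mRNA in KM4A2cr, with 94.2, 52.2, 49.6 and 59.2 total RNA CPM in KMNTC and 115, 66.7, 131 and 136 in KM4A2cr. It was higher in 4 of 4 pairs, and its total RNA log2 fold change was 0.80 (SE 0.19, 95% interval 0.38 to 1.23, adjusted p = 0.0548). *Ddit4* footprints had a log2 fold change of 0.50 (SE 0.19, 95% interval 0.062 to 0.94, adjusted p = 0.164), which was 0.28 without replicate 4 and 0.70 without replicate 1. *Sec13*, a shared subunit of the GATOR2 complex of amino acid sensing and of the COPII coat, had 84.0, 74.1, 68.2 and 52.2 RPF CPM in KMNTC and 55.4, 57.6, 47.1 and 43.6 in KM4A2cr, lower in 4 of 4 pairs. Its RPF log2 fold change was -0.44 (SE 0.12, 95% interval -0.72 to -0.16, adjusted p = 0.0804). In total RNA it was -0.070, from paired differences of -0.44, -0.48, 0.13 and 0.57. Translational efficiency of *Sec13* did not pass (-0.33, adjusted p = 0.237 by edgeR). *Rragc*, a Rag GTPase that brings mTORC1 to lysosomes, passed in translational efficiency only, at 0.44 (SE 0.10, 95% interval 0.23 to 0.65, adjusted p = 0.0421), from 0.26 in RPFs and -0.18 for its mRNA. No other genes of the amino acid arm (25 tested) and of the energy and stress arm passed in any of the 3 tests.

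Among the outputs, *Eif4ebp2*, a 4E-BP that binds the cap-binding protein when mTORC1 is inactive, was the only gene to pass. Its RPF CPM was 7.42, 3.97, 6.03 and 2.94 in KMNTC and 11.6, 5.66, 8.42 and 9.42 in KM4A2cr, higher in 4 of 4 pairs, from between 14 and 96 counts per library. The log2 fold change of *Eif4ebp2* was 0.74 (SE 0.21, 95% interval 0.25 to 1.22, adjusted p = 0.0856) in RPFs, 0.091 (SE 0.12, 95% interval -0.17 to 0.35, adjusted p = 0.736) in total RNA and 0.64 (SE 0.18, 95% interval 0.26 to 1.01, adjusted p = 0.0900) in translational efficiency.

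Of the RPF calls named, DESeq2 gave adjusted p-values under 0.1 to *Prr5l* and *Sec13* but not to *Akt1s1* (0.115) or *Eif4ebp2* (0.117). DESeq2 also took away the total RNA call of *Akt1s1* (0.210) and the translational efficiency call of *Eif4ebp2* (0.133), and on the counted isoform *Akt1s1* was at 0.116 in total RNA by edgeR. With library size as the only scaling, *Eif4ebp2* lost its RPF call by edgeR (adjusted p = 0.116), and its adjusted p in translational efficiency was 0.122. At an adjusted p of 0.05, 0 of the list passed in RPFs, *Prr5l* passed in total RNA, and *Rragc* passed in translational efficiency.

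**Figure D5:**
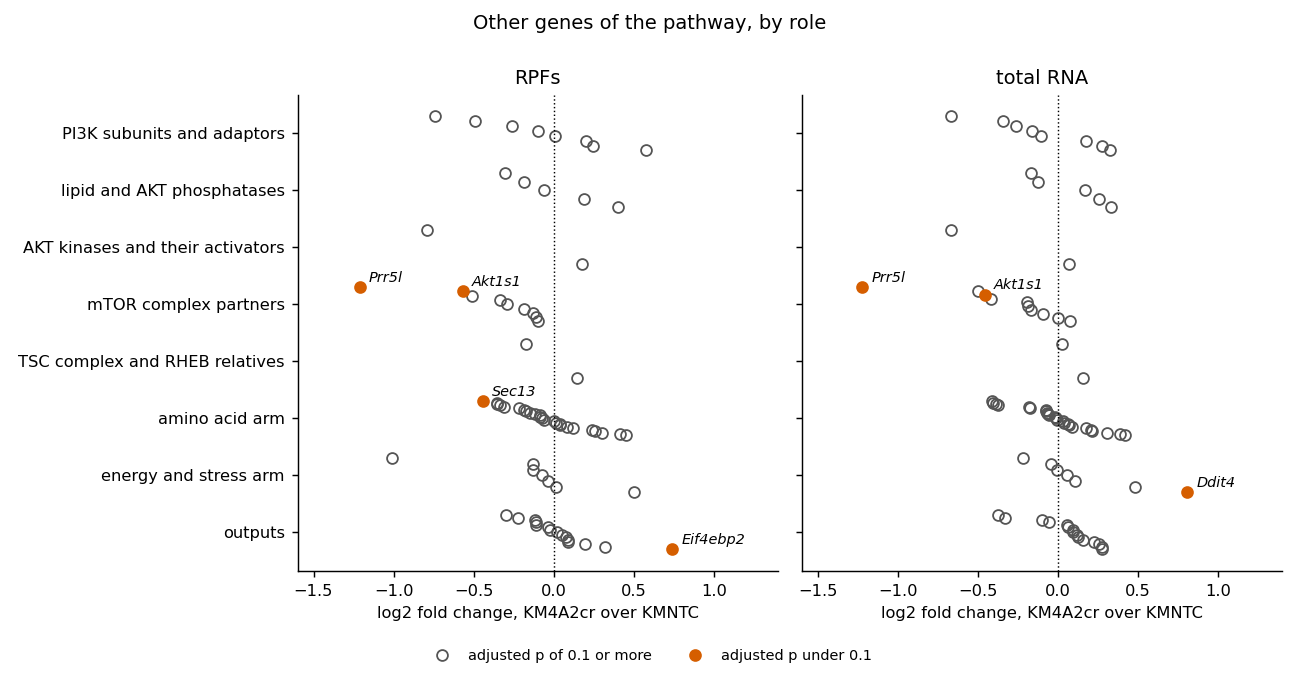
RPF and total RNA log2 fold changes (x axis, KM4A2cr over KMNTC) of the other pathway genes shown, in rows by role. Filled points passed an adjusted p of 0.1 by edgeR and are named. *Eif4ebp2* lies to the right in RPFs alone, *Sec13* to the left in RPFs, *Akt1s1* and *Prr5l* to the left in both, and *Ddit4* to the right in total RNA.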

How the data were processed

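Replicates were independent experiments on different days, per the labels. Per the methods, the authors removed adaptors with Cutadapt 1.18 and PCR duplicates with UMI-tools 1.0.1. They mapped RPFs with BBmap to 1 GENCODE vM27 protein-coding transcript per gene and deposited whole-number counts over the coding sequence without its ends. For total RNA (Bowtie2 2.3.5.1, RSEM 1.3.3) the authors deposited expected counts and TPM per isoform. Versions are those of the submitters' processing notes.

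Here, the isoform tables gave the gene of each of 15235 RPF transcripts. Expected counts were summed per gene and rounded. Genes passing filterByExpr were scaled by TMM within each kind and tested with edgeR 4.0.16 in R 4.3.3 (glmQLFit, glmQLFTest) with replicate and cell line as terms. Translational efficiency was the interaction of line and kind of library in 1 model of 16 libraries, with a term per lysate and replicate terms for each kind. Log2 CPM used a prior count of 2. Tests were tried on simulated counts first. Intervals come from the quasi-likelihood fit, which shares information on variance across genes. They thus do not reflect only the spread of a gene's own replicates.

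Same-numbered libraries of both lines were treated as pairs. Their deviations from line means correlated at 0.575 to 0.782 (RPFs) and 0.611 to 0.756 (total RNA). Libraries of unlike number were not compared in this way, so these values cannot show that a shared number marks a true pair. Alternatives were no block, DESeq2 1.42.0, 3 scalings, 2 filters, a threshold of 0.05, 1 replicate left out, and total RNA of the counted isoform. Coding lengths were not used here, so RPF levels were compared within genes only.

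The 9 genes, the pathway and marker lists and the tests were chosen with earlier results of these data known. Named genes are the 9, *Eif4a2*, list genes passing a test (some items are not reported here, though counts over the list include them), and for each of the 9 the gene with the most similar RPF pattern.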

Additional observations from a re-analysis of the deposited data

Results flagged for a closer look

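Among 40 sets of 4 libraries of the 9 pathway genes and *Eif4a2*, 5 held a library far from the other 3 by Dixon's test, a test that chance alone meets in about 1 of 20 sets. In total RNA, *Mtor* had 40.8 CPM in KMNTC replicate 2 beside 31.5 to 31.8 CPM in the other KMNTC libraries. *Mtor* also had 28.0 CPM in KM4A2cr replicate 3 beside 35.0 to 35.3 CPM in the others of that line. *Eif4a2* had 389 RPF CPM in KMNTC replicate 4 (97.7 to 122 in the others) and 346 in KM4A2cr replicate 4 (51.0 to 88.4), and 524 total RNA CPM in KMNTC replicate 4 (220 to 254). The *Eif4a2* values were thus highest in replicate 4 in both lines, and of the 9 pathway genes only *Tsc1* had its highest RPF value in both lines there.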

How the results depend on the processing

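Low counts limit the scarcer genes. Without the replicate block 0 genes passed in RPFs, total RNA or translational efficiency, the 9 and the list included, although 365, 362 and 22 were under an unadjusted p of 0.05. Library size only gave 1619, 1130 and 133 genes, and 11 and 12 of the pathway list in RPFs and total RNA. It shifted the median of all genes to -0.14 in RPFs and -0.15 in total RNA and the share of higher calls from 63.9% to 29.8% and from 70.9% to 23.2%, and upper-quartile factors moved those shares to 53.5% and 60.1%. A threshold of 0.05 left 438, 321 and 75 genes, and 0 and 1 of the list in RPFs and total RNA. DESeq2 called 136 genes in translational efficiency. With no filter, total RNA and translational efficiency gave 1268 and 470 genes, 7 of the list in total RNA and 1 of the 9 (*Pik3ca*) in translational efficiency. At least 50 counts in 4 libraries left 3 list calls in RPFs, and DESeq2 size factors gave 5 in total RNA.

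With each replicate left out in turn, calls ranged from 32 to 3469 in RPFs (without replicate 3 and 4), from 63 to 3260 in total RNA and from 15 to 800 in translational efficiency. For the list they ranged from 0 to 18, from 0 to 14 and from 0 to 5, and for the 9 genes from 0 to 1, from 0 to 3 and from 0 to 1, the highest each time without replicate 4.

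Estimates near 0 changed sign. In RPFs, upper-quartile factors gave -0.040 for *Tsc2*, -0.026 for *Rheb*, -0.023 for *Rptor* and -0.033 for *Rps6kb1*, and library size only gave -0.13, -0.12, -0.12 and -0.13. No filter gave -0.0092 for *Tsc2* and -0.0033 for *Rps6kb1*. In total RNA, library size only gave -0.028 for *Akt1*, -0.078 for *Akt2*, -0.0054 for *Rps6kb1* and -0.066 for *Eif4ebp2*. With 1 replicate left out, RPF values ranged from -0.063 to 0.091 for *Tsc2*, -0.079 to 0.070 for *Rheb*, -0.076 to 0.081 for *Rptor* and -0.024 to 0.065 for *Rps6kb1*. Total RNA values ranged from -0.12 to 0.17 for *Akt2*, -0.066 to 0.012 for *Pik3ca*, -0.12 to 0.021 for *Tsc1*, -0.31 to 0.014 for *Tsc2*, -0.095 to 0.043 for *Mtor* and -0.29 to 0.080 for *Sec13*, and translational efficiency of *Mtor* from -0.11 to 0.017. None of the sign changes passed a test in either direction. The cause of these changes was not tested.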
